A study of Nothobranchius furzeri with 168 samples.

Results

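The 150 genes described here are fish-linked genes of the turquoise killifish (Nothobranchius furzeri). Their level in the brain of a fish tended to go with the level in the skin of the same fish in the longer-lived strains MZM-0403 and MZCS-0403, and not in the short-lived strain GRZ-D. They were chosen from 26739 genes by measured values. Levels were expressed as log2(CPM + 1), where CPM is the count of a gene divided by the library's total count and scaled to 1e6, and the mean of the fish of the same strain, age and sex in the same tissue was subtracted to give a deviation. For each gene, r is Pearson's correlation of brain with skin deviations over fish. A gene was eligible when the deviations of the longer-lived strains had an SD of at least 0.5 in both tissues and when r in GRZ-D was under 0.3. Of the 26739 genes, 431 passed the SD limits. Of these, 86 had an r of 0.3 or more in GRZ-D and 1 had no defined r there, which left 344, and the 150 with the highest r in the longer-lived strains were kept. Not all members fit the description: 42 had an r under 0.3 in the longer-lived strains, and 29 exceeded their GRZ-D r by under 0.2.

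The series measured RNA in brain and skin of 84 fish, 2 libraries per fish, and asked how expression differs between strains and over life. GRZ-D was sampled as males at day 21 (8 fish), day 35 (6), day 49 (6), day 100 (7) and day 147 (6), and as 3 females at day 49. The MZM-0403 fish were 6 males of day 21, 5 of day 35 and 6 of day 287, with 5 females of day 147. The MZCS-0403 fish were 6 males of day 21, 4 of day 39, 3 of day 147 and 2 of day 287, with 1 female of day 147, 5 of day 217 and 5 of day 287. The labels name no treatment, and nothing in them says whether fish shared a tank or parents, so p-values measure the spread between these fish.

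The turquoise killifish lives in seasonal ponds and is among the shortest-lived vertebrates kept in the laboratory. GRZ is an inbred laboratory strain, whereas MZM and MZCS strains descend from later wild collections. Brain and skin hold different cell types, so that 2 libraries of a fish share the animal but little of the tissue. The deposited IDs carry no gene names, and 0 of the 26739 matched the RefSeq gene table, so genes are given by ID without a function.

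Each library was compared with the mean brain and mean skin profile of the day 21 fish. In 8 fish both libraries lay closer to the profile of the other tissue than to that of their label. These were all 6 GRZ-D males of day 49, 1 of the 3 females of that strain and age, and MZCS-0403 female 7 of day 287. All 9 GRZ-D fish of day 49 and that female took no part in choosing the members or in the tests. The rule thus used 27 GRZ-D fish, 22 MZM-0403 fish and 25 MZCS-0403 fish, and their 148 libraries held 12376397 to 41254724 counts. A count of 3 was 0.242 CPM in the smallest of them and 0.0727 CPM in the largest. Over the 47 longer-lived fish, the correlation of a member's deviation with the log2 total count had a median of 0.014 in brain and -0.0456 in skin, and its largest size was 0.422 in brain and 0.46 in skin. The part of library size in single members was not tested.

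The members covered a wide range of r, cut here into bands at chosen limits. For 44 of them r was 0.8 or more in the longer-lived strains, for 26 it lay between 0.5 and 0.8, and for 80 it was under 0.5, of which 42 were under 0.3. The median was 0.454 and the range 0.196 to 0.972, against a median of 0.124 over all 25381 genes with a value. For each gene the 2 fish farthest from the median of the brain deviation were left out, and fish extreme in skin alone were kept. The 44 then had a median r of 0.869 and a lowest value of 0.503, while the 80 had a median of 0.257. These values chose the members and are a description.

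The rank limit cut through closely spaced genes. The last members inside it were Nfu_g_1_005173 with an r of 0.20 and Nfu_g_1_012103 with 0.196. The first genes outside were Nfu_g_1_013796 with 0.195 and Nfu_g_1_012452 with 0.19. At this end the label of genes linked in the longer-lived strains alone did not describe the values: Nfu_g_1_005173 had an r of 0.284 in GRZ-D, above its r in the other strains. In 29 members the r of the longer-lived strains exceeded that of GRZ-D by under 0.2. For the 44 members with r of 0.8 or more, r in GRZ-D ran from -0.424 to 0.295 with a median of 0.0104, both being values that the rule used.

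**Figure D1:**
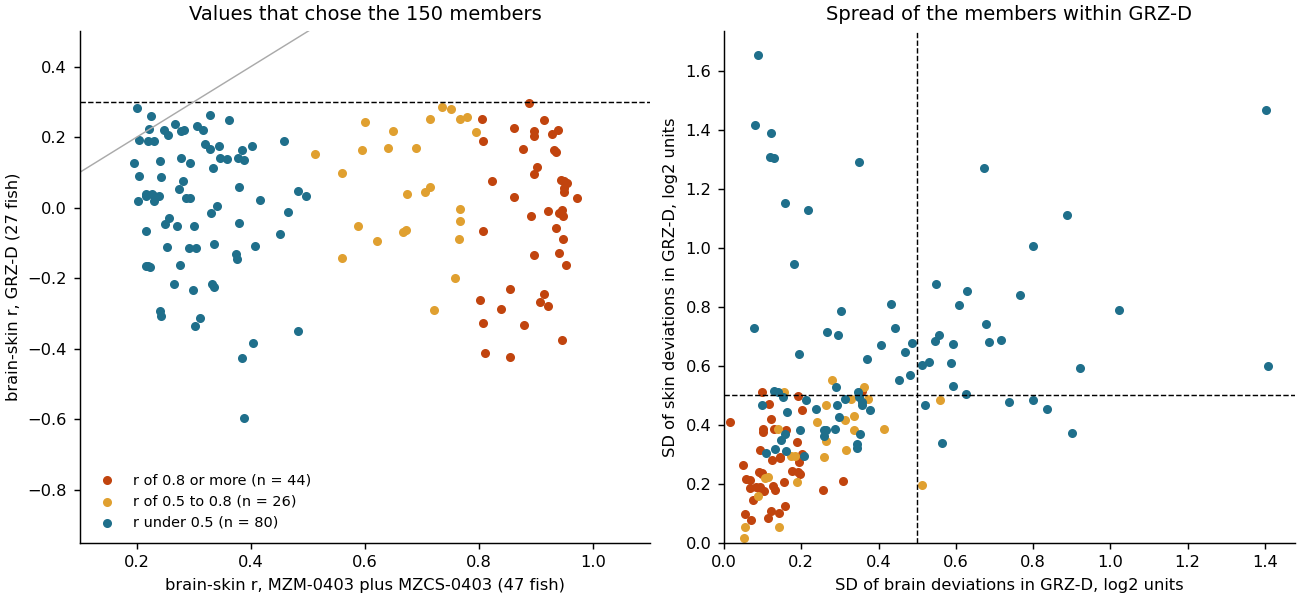
Left, brain-skin r of each of the 150 members over the 47 longer-lived fish against r over the 27 GRZ-D fish; the dashed line is the limit of 0.3 and the grey line marks equal values. Right, SD of the same members' deviations within GRZ-D in brain and in skin, in log2 units; the dashed lines mark 0.5, and the members with r of 0.8 or more lie at the lower left, with a median SD of 0.122 in brain and 0.238 in skin.

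The 6 members with the highest r show what a strong link looked like in single fish. Nfu_g_1_009784 (r = 0.972) was low in 3 MZM-0403 fish, females 3 and 5 of day 147 and male 3 of day 287. These had 0.091, 0.181 and 0.073 CPM in brain and 0.031, 0.064 and 0.067 CPM in skin, which is 1 to 4 counts each. The other 19 MZM-0403 fish had 8.81 to 26.4 CPM in brain and 6.17 to 16.6 CPM in skin. The same 3 fish were thus near 0 in both tissues, at more than 1 age and in both sexes. In MZCS-0403 no fish was low: brain ran from 17.3 to 25.9 CPM (median 20.6) and skin from 9.02 to 19.0 CPM (median 15.1). GRZ-D was as even, with 14.0 to 21.0 CPM in brain (median 16.3) and 5.77 to 12.5 CPM in skin (median 9.79).

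Nfu_g_1_011105 (r = 0.952) took 3 separate levels in MZM-0403. In brain 6 fish had 0.317 to 1.25 CPM, 9 had 21.2 to 28.3 CPM and 7 had 43.5 to 55.5 CPM. The skin of the same fish had 0.294 to 2.9 CPM, 8.15 to 13.7 CPM and 14.8 to 26.3 CPM, so the 3 sets of fish did not overlap in skin either. The levels were read from steps of at least 1.5-fold between neighbouring fish above 2 CPM in brain, and were described after the values had been seen. Every MZCS-0403 fish lay between 42.3 and 67.6 CPM in brain and between 11.3 and 33.6 CPM in skin. Every GRZ-D fish used lay between 37.1 and 47.1 CPM in brain and between 10.1 and 25.9 CPM in skin. Brain levels of both strains thus overlapped with those of the upper set of MZM-0403 fish and lay above the lower sets.

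Nfu_g_1_012221 (r = 0.948) showed the opposite relation to GRZ-D. In MZM-0403 brain, 5 fish had 0.585 to 1.05 CPM, 7 had 20.6 to 25 CPM and 10 had 37.6 to 63.2 CPM. In skin the same sets had 0.034 to 1.16 CPM, 3.06 to 6.94 CPM and 5.15 to 17.3 CPM, so the upper pair of sets overlapped there. All GRZ-D fish were low, at 0.609 to 1.66 CPM in brain and at most 0.378 CPM in skin. All MZCS-0403 fish were low as well, at most 2.17 CPM in brain and 0.552 CPM in skin.

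Nfu_g_1_024192 (r = 0.948) was highest in 4 fish of 1 group. MZM-0403 males 1, 5, 6 and 3 of day 21 had 81.4, 87.9, 46.4 and 29.3 CPM in brain and 15.1, 13.4, 10.4 and 6.64 CPM in skin. The other 2 males of that age had 0.332 and 0.423 CPM in brain. No GRZ-D fish passed 0.752 CPM in brain and no MZCS-0403 fish passed 1.7 CPM. Skin was higher in some of these fish without a high brain: GRZ-D males 1 and 3 of day 147 had 3.25 and 3.15 CPM, and MZCS-0403 male 3 of day 147 had 2.61 CPM with 0.053 CPM in its brain. The GRZ-D skin level was higher at day 147 than at day 35 (log2 difference 3.46, SE 0.94, adjusted p = 0.001631, edgeR). Outside day 21 the highest MZM-0403 brain was that of male 4 of day 287, at 11.3 CPM. At day 21, fish of the same strain and sex thus fell into a high and a low set, and the 4 high males were above the other 2 in skin as well. The MZM-0403 males of day 287 were graded in brain, at 0.096, 0.456, 2.73, 4.03, 6.03 and 11.3 CPM.

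In the remaining pair of the 6, the varying strain was MZCS-0403. Nfu_g_1_013498 (r = 0.954) was at 4.12 CPM or more in 21 of its 25 fish in brain and at 0.408 to 1.06 CPM in the other 4, which were males 3 and 4 of day 39, female 4 of day 217 and female 6 of day 287. Those 4 fish had 0.188 to 0.329 CPM in skin, where the others had 2.93 to 8.58 CPM. In MZM-0403 brain it ran from 0.051 to 1.97 CPM (median 0.279), with male 4 of day 21 the highest in both tissues, and in GRZ-D brain from 0.387 to 2.55 CPM (median 1.02), so both strains overlapped with the 4 low MZCS-0403 fish. Nfu_g_1_017529 (r = 0.949) was at or below 0.253 CPM in brain in 6 MZCS-0403 fish and reached 18.0 CPM in others. The same 6 fish had 0.087 to 0.511 CPM in skin, and the other fish 2.11 CPM or more. GRZ-D brain stayed within 2.18 to 5.53 CPM.

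**Figure D2:**
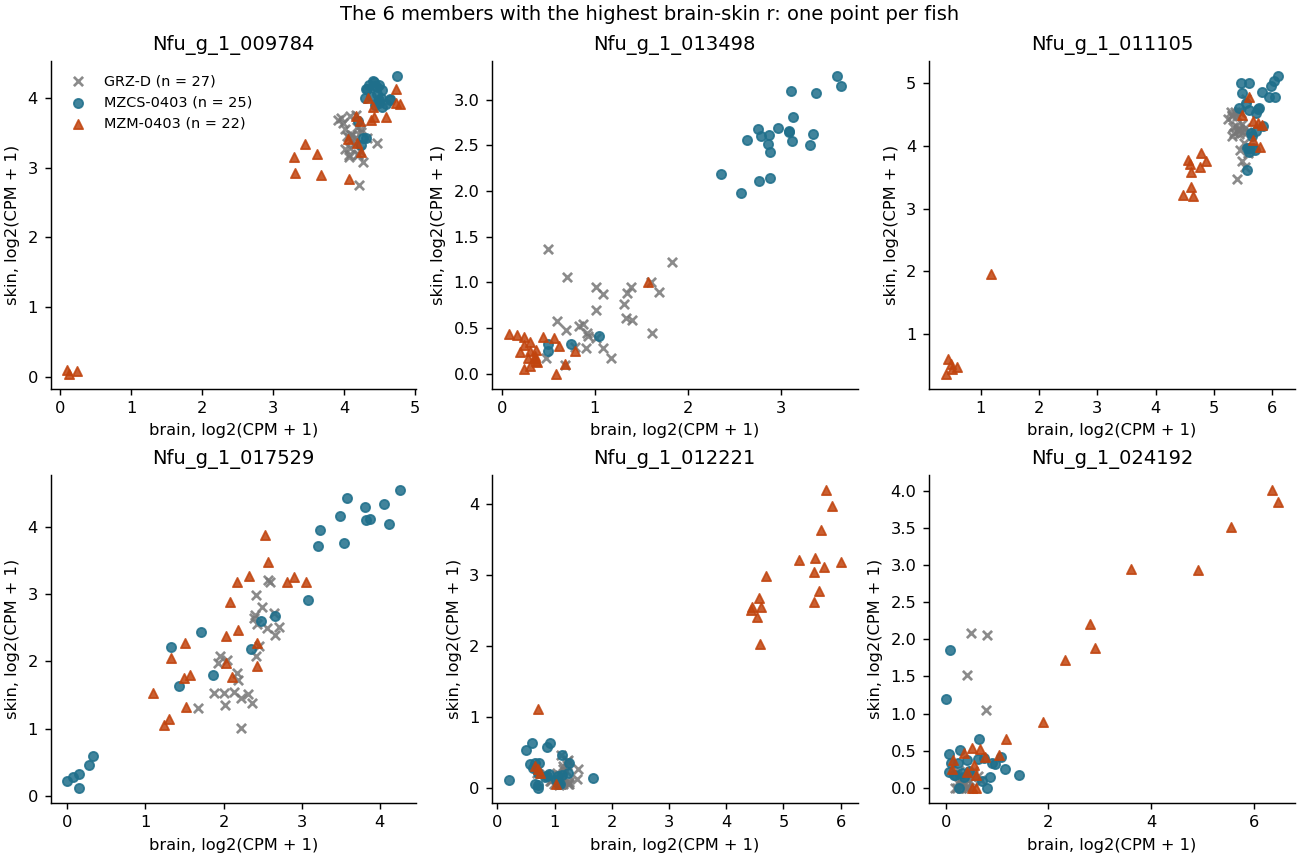
Level in skin against level in brain, as log2(CPM + 1), for the 6 members with the highest brain-skin r; each point is 1 fish, marked by strain. The fish of MZM-0403 or of MZCS-0403 spread along the diagonal, mostly in separate groups, while the 27 GRZ-D fish (crosses) span a narrower range in brain. In Nfu_g_1_024192 the MZM-0403 fish are spread more gradually, and GRZ-D skin reaches 3.25 CPM.

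Presence or absence by fish was common among the members. A fish was counted as on for a gene above 2 CPM in both tissues and as off below 0.5 CPM in both, and a gene with at least 3 longer-lived fish in each state was called on-off. This held for 43 members, 23 of them among the 44 with r of 0.8 or more, against 73 of the 431 genes past the SD limits and 230 of all 26739 genes. An on-off pattern itself gives a wide spread and a high r, the values that chose the members. The larger share among them thus follows in part from the choice. Over the 23 genes and 47 fish there were 1081 states: 486 on, 348 off, 234 in between and 13 on in 1 tissue and off in the other. The count of opposite states is small partly by choice, since the members were picked for agreement between the tissues. None of the 23 had both states among the 27 GRZ-D fish: 5 were on in all of them, 3 were off in all of them and 15 were in between or mixed with in-between fish. The limit on r in GRZ-D works against both states there.

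Examples of genes off throughout GRZ-D were Nfu_g_1_014318 and Nfu_g_1_008005. Nfu_g_1_014318 never exceeded 0.145 CPM in GRZ-D brain or 0.453 CPM in skin. In MZM-0403 it ran from 1.19 to 8.23 CPM in brain with a median of 4.46, and no fish was off. In MZCS-0403, 14 fish were off and 10 on, with the on fish at 4.56 CPM or more in brain. Nfu_g_1_008005 was off in 24 of the 25 MZCS-0403 fish and in all of GRZ-D, and in MZM-0403 it was on in 8 fish and off in 10, with a brain maximum of 6.28 CPM. For each gene, fish of both states thus occurred in 1 longer-lived strain. In the other strain the first gene was on in 17 of 22 fish, with the rest in between, and the second was off in all fish but 1.

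Most strongly linked members varied in 1 of the longer-lived strains and not in the other. With a member taken as linked in a strain when both SDs were at least 0.5 and r at least 0.5 there, 22 of the 44 were linked in MZM-0403 and not in MZCS-0403, 16 in MZCS-0403 and not in MZM-0403, and 6 in both. For the 22, the median SD in brain was 0.974 in MZM-0403 and 0.20 in MZCS-0403. For the 16, it was 1.06 in MZCS-0403 and 0.248 in MZM-0403. Skin gave 1.0 against 0.299 for the 22 and 0.96 against 0.393 for the 16. Not being linked did not always mean a low r. In the other strain r was under 0.5 for 15 of the 22 and for 7 of the 16, and the rest fell short by SD alone. Over all 150 members the counts were 38, 33 and 9, and 70 met the definition in neither strain alone. The difference between the strains was not tested, because these values rest on those that chose the genes.

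**Figure D3:**
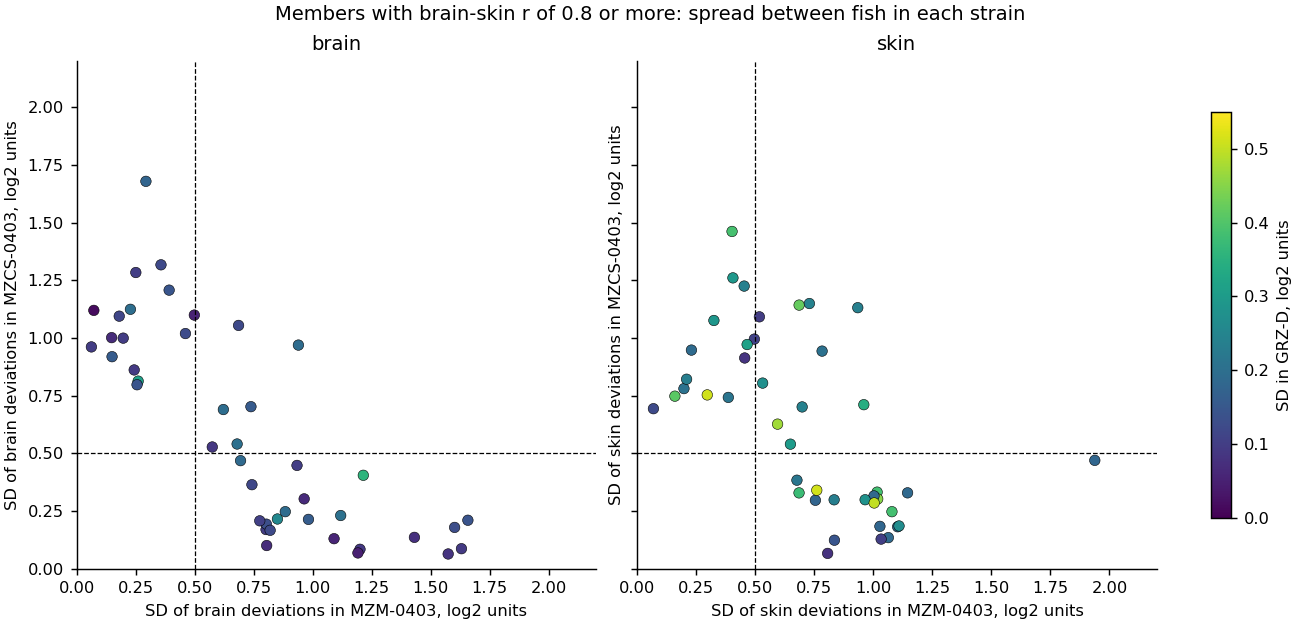
SD of the deviations of the 44 members with r of 0.8 or more in MZM-0403 (x axis) and MZCS-0403 (y axis), in log2 units, for brain and skin; the colour gives the SD in GRZ-D and the dashed lines mark 0.5. Most points lie beyond 0.5 on 1 axis and below it on the other, and the SD in GRZ-D was at most 0.358 in brain.

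In GRZ-D most of the strongly linked members varied little. Their SD in brain had a median of 0.122 and a maximum of 0.358, against a median of 0.732 in the longer-lived fish. In skin the medians were 0.238 and 0.712, and the GRZ-D maximum was 0.513. The rule set a lower limit on SD in the longer-lived fish and none in GRZ-D, so a smaller SD in GRZ-D follows in part from the choice. Over the 431 genes past the SD limits the GRZ-D medians were 0.293 in brain and 0.516 in skin. For the 44, low r in GRZ-D was a correlation over small deviations. Of the 44, 12 had a median under 1 CPM in both GRZ-D tissues, where little spread can be seen at this depth. In the 25 with medians of at least 1 CPM in both tissues the SD was as small, with medians of 0.117 in brain and 0.274 in skin. Another 19 genes passed the SD limits with an r of at least 0.8 in the longer-lived fish but were left out for an r of at least 0.3 in GRZ-D. Their GRZ-D SDs were also small, with medians of 0.161 in brain and 0.348 in skin. The limit on r in GRZ-D thus divided 63 strongly linked genes, and on both sides of it the median SD there was small.

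The weakly linked members differed in this respect. For the 80 with r under 0.5, the SD in GRZ-D had a median of 0.352 in brain and 0.58 in skin, and it was at least 0.5 in both tissues for 22 of the 150 members. The rule itself kept out genes whose brain and skin varied together in GRZ-D.

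The fish that took no part in the choice gave the same 2 quantities afresh. In the 6 GRZ-D males of day 49, r is unaffected if brain and skin are exchanged in every fish. Its median over the 148 members with a value was 0.0781, against 0.237 over the 422 genes past the SD limits with a value and 0.0012 over all 23881 genes with one. It was under 0.3 for 98 of the 148 members, 242 of the 422 genes and 16766 of the 23881 genes. With 6 fish single values of r scatter widely, from -0.95 to 0.979 among the members. Among the strongly linked members the SD in these males had a median of 0.139 in libraries labelled brain and 0.101 in those labelled skin, with maxima of 1.52 and 0.275. Over the 431 genes past the SD limits the medians were 0.246 and 0.192. The maximum of 1.52, in the libraries labelled brain, was in Nfu_g_1_008182, named for that value. These libraries lay closer to the skin profile.

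States could also be read in GRZ-D of day 49. Of the 43 on-off members, 8 were on in all 27 GRZ-D fish used, and all 8 were on in all 9 fish of day 49. The 3 that were off in all 27 were off in all 9. The other 32 had fish in between or opposite in GRZ-D and were not compared. Over the 43, MZCS-0403 female 7 of day 287 was on for 16, off for 12, opposite for 1 and in between for 14. Of the 13 strongly linked on-off members with both states in MZCS-0403, that fish was on for 7 and off for 4 in both of its libraries, in between for 2 and opposite for 0.

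The strongly linked members did not vary together. With the mean of brain and skin deviations taken for each fish, 2 of the 946 pairs among the 44 had an r of 0.6 or more, none had -0.6 or less, and the median size of r was 0.0941. Of the 44, 22 were linked in MZM-0403 and not in MZCS-0403, and 16 the other way. A pair across these sets varied mainly in different strains, which limits its r. Most pairs thus did not share their high and low fish. The closest pair, which did, was Nfu_g_1_018076 and Nfu_g_1_018077 at 0.992, whose ID numbers differ by 1. Of the 7 pairs of members with ID numbers within 10 of each other, 2 had an r of 0.6 or more in size, and the files do not say whether neighbouring numbers mean neighbouring genes. If the pair shares sequence, the counting could have divided reads between them, which could not be checked here.

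Number of on members per fish was summed over the 43 on-off members. It ran from 8 to 14 in GRZ-D (median 11, 27 fish), from 10 to 19 in MZM-0403 (median 13, 22 fish) and from 13 to 25 in MZCS-0403 (median 17, 25 fish). MZCS-0403 fish were on for more of these genes, although the genes were chosen in these fish, so this is a description.

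Many of the weakly linked members did vary together. When members were grouped by their deviations over the longer-lived fish (average linkage, mean r of about 0.6), 45 fell into 6 clusters of at least 4, of which 44 had r under 0.5 and none 0.8 or more. The clusters held 15, 9, 8, 5, 4 and 4 members, with a mean pairwise r of 0.714 to 0.923. Within a cluster, genes rose and fell together between fish, but the cluster mean in brain went only weakly with that in skin, with an r of 0.244 to 0.378. Without the 2 highest fish this r was 0.109 to 0.356.

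Members of the clusters also varied together within GRZ-D, which took no part in the grouping. In cluster 6 (4 members) the mean pairwise r in GRZ-D was 0.918 in brain and 0.928 in skin. In cluster 1 (15 members) it was 0.633 and 0.466, and in cluster 4 (5 members) 0.927 and 0.625. Cluster 2 (9 members) was held together in GRZ-D skin, at 0.711, and not in brain, at 0.0428, where its median level was 0.254 CPM. Joint variation of these genes was thus not limited to the longer-lived strains.

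Cluster 1 was made of genes of high level in skin. Its median over members was 168 CPM in MZM-0403 skin and 2.91 CPM in brain. Its brain deviation was 2.34 in MZM-0403 female 1 of day 147 and 2.11 in male 13 of day 35, and -2.05 in male 4 of day 35. The brain library of that female had a correlation of 0.7807 with the mean skin profile and 0.9513 with the mean brain profile. For the brains of males 13 and 4 the correlation with the skin profile was 0.7145 and 0.6805. The other brains of that group, of males 12, 7 and 2, had 0.7156, 0.7149 and 0.6981. Their brain deviations were 0.0111, 0.518 and -0.587, so the deviation did not follow this correlation throughout the group. The genes with the highest mean r to the rest of the cluster were Nfu_g_1_023268 and Nfu_g_1_002091. Nfu_g_1_023268 ran from 0.133 to 17.7 CPM in MZM-0403 brain with a median of 0.719, and from 28.4 to 285 CPM in skin with a median of 106. Nfu_g_1_002091 ran from 26.3 to 8470 CPM in brain with a median of 311, and from 4758 to 63544 CPM in skin with a median of 24143. For both genes the highest brain library was male 13 of day 35, and the skin of that fish, at 172 and 54577 CPM, was within the range of the others. Each library came from a piece of tissue, so that fewer cells of a type and less RNA per cell cannot be told apart, and the part of skin-derived RNA in these brain values was not tested.

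**Figure D4:**
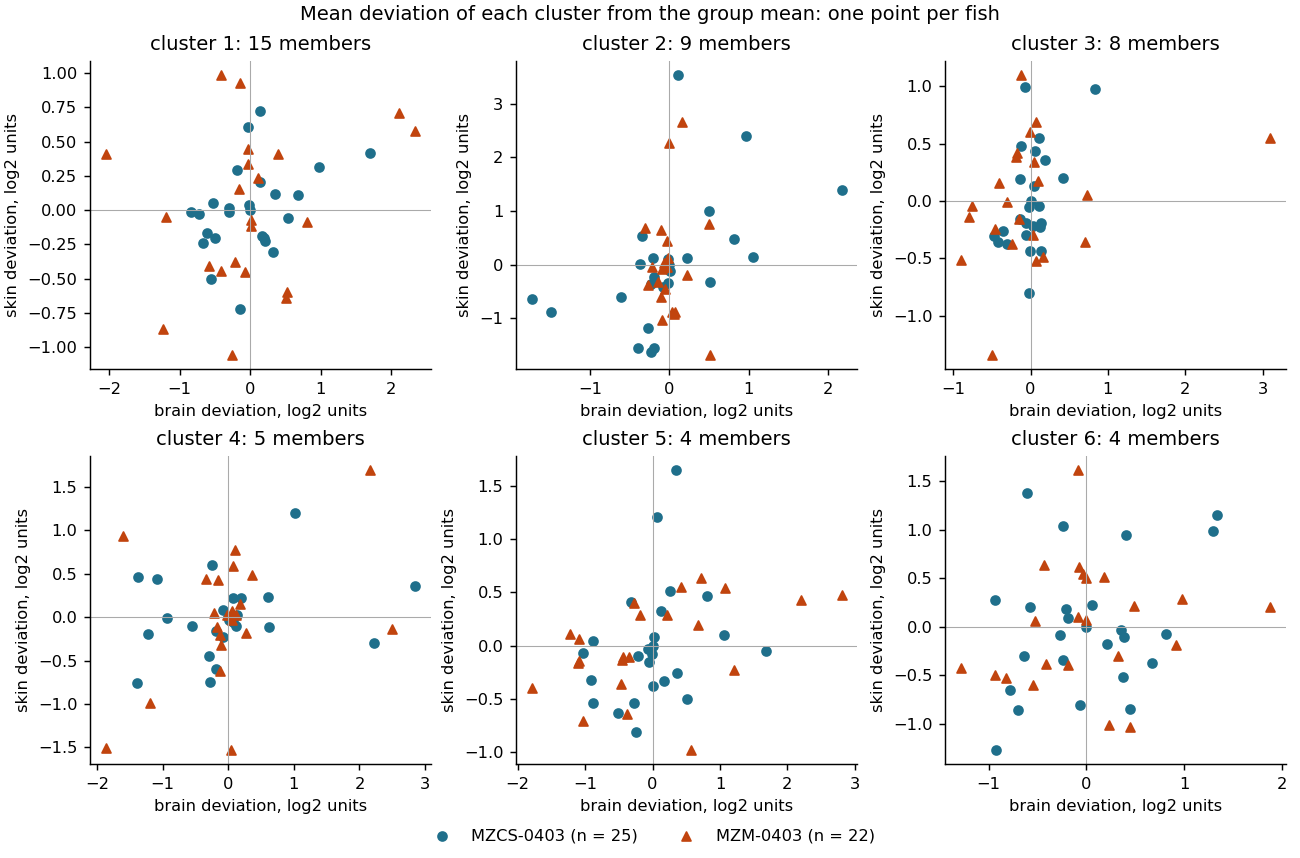
Mean deviation of each of the 6 clusters in skin against brain, in log2 units, with 1 point per longer-lived fish. Points scatter around 0 with a few fish far out in brain, and the r of the 2 tissues was between 0.244 and 0.378.

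The bands of highest and lowest r also differed in tissue level. Among the 44 strongly linked members, in MZM-0403 none had a skin median at least 4-fold above its brain median, and 1 was at least 4-fold higher in brain. Among the 80 with r under 0.5, 36 were at least 4-fold higher in skin and 3 in brain. The strongly linked members had median levels of 5.11 CPM in brain and 4.58 CPM in skin of MZM-0403, 4.20 and 3.78 CPM in MZCS-0403, and 2.37 and 2.08 CPM in GRZ-D.

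Group means were subtracted before the members were chosen, but the choice was not independent of level. The SD limits applied to the longer-lived fish alone. A gene with almost no counts in those fish could not pass them, while a gene with almost no counts in GRZ-D could. The direction of differences from GRZ-D is thus tied in part to the choice, and comparisons of level with GRZ-D are descriptions. Counts of each tissue were fitted with edgeR's quasi-likelihood method, with 74 libraries and 22979 genes in brain and 74 libraries and 23118 genes in skin. All 150 members passed the filter on low counts. A gene is called different at a Benjamini-Hochberg adjusted p under 0.05 over all genes tested. The choice of members for wide spread between fish bears on these counts, since that spread is the error term of the test.

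At day 21, males of MZCS-0403 and MZM-0403 differed in more of the members than of all genes. In brain 53 of 150 members were called (35.3%), against 18.1% of all genes, and MZCS-0403 was higher for 37 and lower for 16, where all genes divided into 9.06% and 9.02%. Skin gave 56 (37.3%), against 16.2% of all genes, with 40 higher and 16 lower, where all genes divided into 9.05% and 7.12%. In a skin fit of these 2 groups alone the count was 34 of 140 members, against 1475 of 18053 genes. Among the 44 strongly linked members the counts were 23 in brain (52.3%) and 25 in skin (56.8%), and among the other 106 they were 30 (28.3%) and 31 (29.2%). The median size of the log2 difference was 1.60 in brain for the 44, and 0.17 over all genes. The 44 were chosen for wide spread between fish, these males included, and all genes were not. Means of few fish differ more in genes of wide spread, so these medians and shares are not a like comparison. Of the 44, 22 were called in both tissues, all in the same direction, and the 106 had 15, of which 13 went the same way. Over all 150, 22 were higher in both tissues (14.7%, against 2.72% of all genes) and 13 lower (8.67%, against 2.75%). The tissues came from the same fish, and the 44 were chosen for agreement between them.

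GRZ-D at day 21 differed from MZM-0403 in 63 members in brain (42%), against 34.8% of all genes, and in 62 in skin (41.3%), against 42.4%. It differed from MZCS-0403 in 58 in brain (38.7%), against 34.2%, and in 65 in skin (43.3%), against 41.6%. Over all 150 members these shares were near those of all genes. Among the 44 strongly linked members, brain and skin gave 50.0% and 52.3% against MZM-0403, and 43.2% and 45.5% against MZCS-0403. Both comparisons share the 8 GRZ-D fish. In brain 45 of the 58 members called against MZCS-0403 were lower in GRZ-D and 13 higher, where all genes divided into 17.0% lower and 17.2% higher. In skin 48 of the 65 were lower and 17 higher, where all genes divided into 21.9% and 19.7%. The SD limit on the longer-lived fish could let in genes low in GRZ-D, so these splits are a description. Against MZM-0403 the split was 39 lower and 24 higher in brain and 31 each way in skin. There the median log2 difference was -0.012 over the members and -0.001 over all genes in brain, and 0.057 and 0.025 in skin.

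At later ages more of the called members were lower in GRZ-D than higher. The SD limit on the longer-lived fish bears on this direction too, so it is a description. At day 35, 82 members were called against MZM-0403 in brain (54.7%), against 47.2% of all genes, 59 of them lower in GRZ-D, where 24.9% of all genes were lower and 22.3% higher. Skin gave 70 (46.7%), against 38.2%, with 47 lower, where 23.0% of all genes were lower and 15.2% higher. With the fish numbers shared by these 2 groups as a block, 37 of 137 members were called in brain, against 4700 of 20457 genes. In skin that fit called 0 of 143 members and 0 of 19577 genes, so it does not set the members apart. At day 147, 54 members were called against MZCS-0403 in brain (36.0%), against 43.3% of all genes, and 54 in skin (36.0%), against 25.2%, with 37 lower in each tissue, where 21.1% and 11.1% of all genes were lower. Without MZCS-0403 male 4 of day 147 the skin count was 34 of 150 members, against 3798 of 23113 genes.

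In 13 of the 150 members GRZ-D was lower than both other strains at day 21 in both tissues (8.67%), against 3.28% of the 22167 genes tested in both tissues. In 1 member it was higher (0.667%), against 3.72%. The SD limit on the longer-lived fish let in genes near 0 in GRZ-D and kept out genes near 0 in both other strains. All genes carry no such limit, so this split is a description. Nfu_g_1_014748 (r = 0.704) had at most 2 counts in any GRZ-D library of day 21 and was at 0 in 5 of the 8 brains and 6 of the 8 skins. MZM-0403 males of that age ran from 17.0 to 35.7 CPM in brain (median 26.2) and from 15.9 to 36.2 CPM in skin (median 23.8). MZCS-0403 males ran from 12.1 to 28.2 CPM in brain (median 17.5) and from 8.50 to 22.8 CPM in skin (median 16.1). All 8 GRZ-D fish lay below all fish of both strains (adjusted p = 1.67e-20 and 2.17e-19 in brain, 3.23e-22 and 8.54e-21 in skin, edgeR). Over all 27 GRZ-D fish the maximum was 0.137 CPM in brain and 0.175 CPM in skin, and in the 9 fish of day 49 it was 0.087 CPM.

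Nfu_g_1_007450 (r = 0.56) had 1 count in 1 of the 8 GRZ-D brains and in 2 of the 8 skins of day 21 and none in the others. MZM-0403 males had 1.33 to 4.93 CPM in brain (median 2.07) and 0.39 to 8.85 CPM in skin (median 1.26). MZCS-0403 males had 3.40 to 14.7 CPM in brain (median 4.64) and 6.74 to 52.8 CPM in skin (median 11.1). The groups did not overlap with GRZ-D in either tissue (adjusted p = 9.46e-12 and 3.02e-16 in brain, 3.6e-08 and 1.32e-12 in skin, edgeR). In the brains of MZM-0403 males of day 287 it was at 41.5 to 61.2 CPM, while no GRZ-D library at any age used passed 0.188 CPM. No fold change is given for either gene, because it would depend on the small number added to counts near 0. Nfu_g_1_014748 and Nfu_g_1_007450 passed the SD limits through the longer-lived fish, where they were high. They were then named for the size of these differences, so their p-values are a description and no test of the strains.

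The 1 member higher in GRZ-D at day 21 was Nfu_g_1_016052 (r = 0.38). GRZ-D males of day 21 had 3.82 to 5.39 CPM in brain (median 4.07), MZM-0403 males 0.154 to 2.54 CPM (median 0.212) and MZCS-0403 males 0.052 to 0.655 CPM (median 0.332). Brain groups did not overlap, and the log2 differences were 2.67 (SE 0.68, adjusted p = 0.00123, edgeR) and 3.54 (SE 0.74, adjusted p = 8.8e-05, edgeR). Skin groups overlapped, with medians of 26.8, 14.6 and 8.29 CPM and log2 differences of 0.78 (adjusted p = 0.037, edgeR) and 1.37 (adjusted p = 0.000389, edgeR). With all 84 libraries labelled skin in the fit, the first of these had an adjusted p of 0.127 (edgeR). That fit included the 8 libraries labelled skin that lay closer to the brain profile. At later ages GRZ-D skin was lower, by a log2 difference of -1.50 against MZM-0403 at day 35 (adjusted p = 0.0004282, edgeR) and of -1.10 against MZCS-0403 at day 147 (adjusted p = 0.02726, edgeR). In brain the difference was -1.06 at day 35 (adjusted p = 0.1438, edgeR) and 2.56 at day 147 (adjusted p = 0.01271, edgeR).

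With all groups in 1 fit, a smaller share of the strongly linked members than of all genes was called for age. From day 35 to day 287 in MZM-0403 males, 7 of the 44 were called in brain (15.9%), against 37.7% of all genes, and 13 in skin (29.5%), against 43.7%. From day 39 to day 147 in MZCS-0403 males, 5 were called in brain (11.4%), against 40.0%, and 3 in skin (6.82%), against 37.4%. From day 35 to day 147 in GRZ-D males, 1 was called in brain (2.27%), against 24.7%, and 9 in skin (20.5%), against 51.5%. The GRZ-D shares differed with the fit. In a fit of those 2 GRZ-D groups alone, 15 of 35 were called in brain (42.9%), against 45.0% of all genes, and 16 of 31 in skin (51.6%), against 47.9%. In fits of the 2 groups alone the shares stayed low in MZM-0403, at 3 of 35 in brain (8.57%, against 25%) and 4 of 34 in skin (11.8%, against 43.1%), and in MZCS-0403, at 2 of 41 in brain (4.88%, against 21.0%) and 9 of 39 in skin (23.1%, against 46.7%). The median size of the log2 change for the 44 and over all genes was 0.63 and 0.28 in MZM-0403 brain, and 0.93 and 0.55 in its skin. It was 0.44 and 0.36 in MZCS-0403 brain, and 0.81 and 0.64 in its skin. In GRZ-D it was 0.24 and 0.21 in brain, and 0.65 and 0.60 in skin. Here too the 44 were chosen for wide spread between longer-lived fish and all genes were not. That spread is the error term of the test and can lower the share called. The shares are thus not a like comparison, and a low share does not mean a small change with age.

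Over all 150 members the age counts were 73 in MZM-0403 brain (48.7%, against 37.7%) and 74 in skin (49.3%, against 43.7%). They were 33 in MZCS-0403 brain (22.0%, against 40.0%) and 39 in skin (26%, against 37.4%), and 20 in GRZ-D brain (13.3%, against 24.7%) and 60 in skin (40.0%, against 51.5%). The MZM-0403 calls came mainly from members with r under 0.8, of which 66 of 106 were called in brain (62.3%) and 61 in skin (57.5%). In both tissues, 11 members rose (7.33%, against 6.91% of all genes) and 29 fell (19.3%, against 9.96%) between day 35 and day 287 in MZM-0403 males. These counts came from the fit of all groups, and fits of the 2 groups alone gave others, for brain and then skin. GRZ-D had 52 of 125 members (9071 of 20139 genes) and 65 of 127 (9127 of 19069). MZM-0403 had 53 of 135 (5086 of 20324) and 52 of 137 (8187 of 19004). MZCS-0403 had 23 of 143 (4299 of 20507) and 54 of 143 (8917 of 19076).

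Nfu_g_1_016745 (r = 0.672) ranked first among the 11 by the smaller of its brain and skin changes. In MZM-0403 skin the 5 males of day 35 had 0.083, 0.091, 0.13, 0.13 and 4.54 CPM, and the 6 of day 287 had 4.92 to 59.3 CPM with a median of 39.9. In brain the values were 0.139, 0.396, 0.425, 0.484 and 0.773 CPM at day 35, and 0.355 to 16 CPM with a median of 3.77 at day 287. Skin groups did not overlap and 5 of 6 older brains lay above all younger ones. The log2 change was 3.57 in brain (SE 0.51, adjusted p = 9.53e-08, edgeR) and 5.25 in skin (SE 0.81, adjusted p = 4.1e-07, edgeR). MZM-0403 females of day 147 differed among themselves in skin, with 0.077 and 0.161 CPM in females 2 and 5. Females 1, 3 and 4 had 41.3, 14.2 and 26.6 CPM. In the other strains the gene was present in skin from day 21, with medians of 14.8 CPM in GRZ-D and 17.2 CPM in MZCS-0403.

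Nfu_g_1_018077 (r = 0.927), of the adjacent ID pair above, was near 0 in the 5 males of day 35, at 0, 0, 0.099, 0.215 and 0.561 CPM in brain. At day 287 the brains fell into 3 at 0.241 to 0.292 CPM and 3 at 2.18, 2.56 and 4.92 CPM. The log2 change was 3.14 in brain (SE 0.84, adjusted p = 0.00239, edgeR) and 3.68 in skin (SE 1.13, adjusted p = 0.00641, edgeR). Brain groups overlapped and 3 of the 6 older fish carried the higher mean. In GRZ-D males of day 21 the gene was at 5.83 to 9.48 CPM in brain.

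Among the 29 that fell, Nfu_g_1_001498 (r = 0.24) had 3.48, 6.73, 7.13, 215 and 262 CPM in the brains of day 35 and 2.77 to 5.51 CPM (median 4.23) at day 287. In skin it had 0.547, 0.627, 6.49, 29.6 and 51.5 CPM at day 35 and at most 0.48 CPM at day 287. Skin groups did not overlap, while in brain 2 of the 5 younger fish carried the difference. The log2 change was -4.57 in brain (SE 1.14, adjusted p = 0.001135, edgeR) and -6.16 in skin (SE 1.31, adjusted p = 0.000111, edgeR). High brains also occurred at other ages and strains, up to 282 CPM in GRZ-D and 427 CPM in MZCS-0403 at day 21.

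Nfu_g_1_021459 (r = 0.362) had 5.58 to 211 CPM in skin at day 35 with a median of 148, and 0.06 to 4.90 CPM with a median of 0.497 at day 287, without overlap. The log2 change in skin was -6.58 (SE 1.56, adjusted p = 0.000464, edgeR). In brain it was under 0.35 CPM in all fish of both ages except male 12 of day 35 at 3.70 CPM. Without that library the brain change had an adjusted p of 0.464 (edgeR), against 0.0233 with it.

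**Figure D5:**
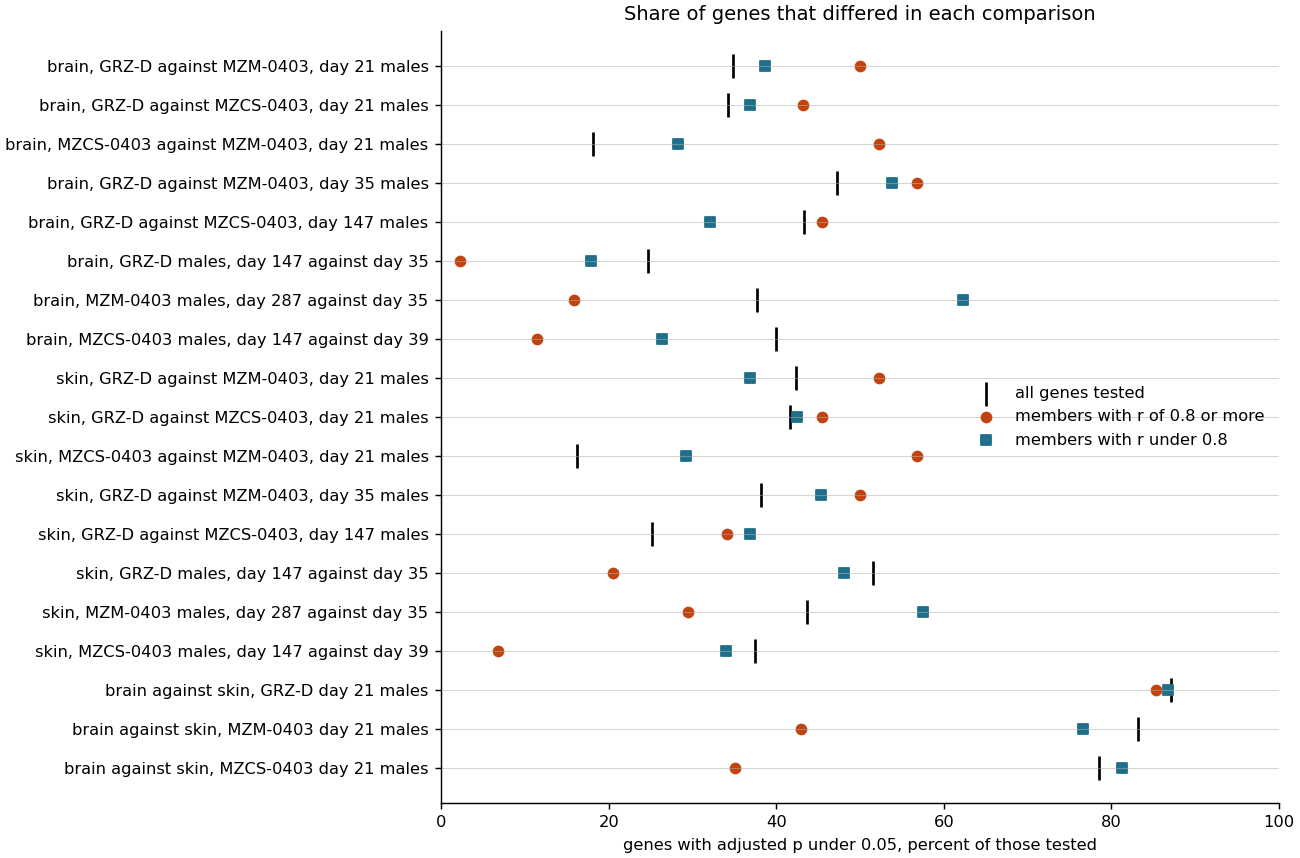
Percent of genes with an adjusted p under 0.05 (edgeR) in each of 19 comparisons, for all genes tested (bar), members with r of 0.8 or more (circle) and the other members (square). The circles lie to the right of the bar in all comparisons of strains. They lie farthest from it for MZCS-0403 with MZM-0403 at day 21, at 52.3% in brain and 56.8% in skin. They lie to its left in the age comparisons, which come from the fit of all groups. The members were chosen for wide spread between longer-lived fish, which bears on these shares. The GRZ-D age shares differed in fits of the 2 groups alone.

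Brain was compared with skin in the day 21 males of each strain, in separate fits of those libraries. In GRZ-D 107 of the 124 members that passed the filter were called (86.3%), against 87.1% of all genes. In MZM-0403 it was 87 of 129 (67.4%), against 83.2%, and in MZCS-0403 95 of 138 (68.8%), against 78.5%. These fits did not pair the brain and skin of a fish. The members were chosen for spread between longer-lived fish shared by both tissues, and without pairing that spread enters the error term. It can lower the shares in MZM-0403 and MZCS-0403. These shares are thus not a like comparison with GRZ-D or with all genes. Strongly linked members were called in 29 of 34 in GRZ-D (85.3%), 15 of 35 in MZM-0403 (42.9%) and 13 of 37 in MZCS-0403 (35.1%). With fish as a block, so that each brain was set against the skin of its own fish, the counts were 29 of 34, 25 of 35 (71.4%, against 84% of all genes) and 19 of 37 (51.4%, against 78.5%). The other members called were mostly higher in skin: 64 of 72 in MZM-0403 and 73 of 82 in MZCS-0403. The median log2 difference of brain minus skin was -1.34 over the members tested and 0.068 over all genes in MZM-0403. In MZCS-0403 it was -1.92 and 0.123.

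Of the 111 members tested in all 3 strains, 5 were higher in brain in all of them (4.50%, against 35.5% of all genes) and 55 were higher in skin (49.5%, against 33.1%). These calls came from the fits without pairing, so the same limit applies to these shares. Nfu_g_1_012575 (r = 0.388) had medians at day 21 of 0.425 CPM in brain and 174 CPM in skin of GRZ-D, with log2 differences of brain minus skin of -9.80, -9.33 and -8.88 in GRZ-D, MZM-0403 and MZCS-0403 (adjusted p = 2.73e-16, 4.49e-11 and 6.32e-09, edgeR). Nfu_g_1_020185 (r = 0.403) was similar, with medians of 0.86 CPM and 238 CPM in GRZ-D. No brain of that age passed 1.47 CPM for either gene, and no skin was below 40.7 CPM. Nfu_g_1_021146 (r = 0.275) was the reverse, with brain medians of 88.0, 114 and 116 CPM and skin medians of 0.908, 0.549 and 1.11 CPM in GRZ-D, MZM-0403 and MZCS-0403. Single skins reached 36.6 CPM in GRZ-D and 13.7 CPM in MZCS-0403, below every brain of the same group, and the log2 differences were 2.99, 6.61 and 4.65 (adjusted p = 0.00236, 2.04e-11 and 0.000137, edgeR). Nfu_g_1_016549 (r = 0.714) was higher in brain by 1.71, 1.90 and 1.85 on the log2 scale (adjusted p = 0.000612, 1.29e-07 and 0.0279, edgeR).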

How the data were processed

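RNA was extracted from brain and skin with the RNeasy Mini Kit and made into TruSeq RNA v2 libraries, per the labels' protocols. The authors deposited raw whole-number counts per gene. The submitters' processing notes name bcl2fastq 1.8.4, STAR 2.5.1b and featureCounts 1.5.0; the genome build, annotation and strand setting are not given in the sources used here, so overlapping or near-identical genes may share reads.

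Of 26739 genes 752 had no count. CPM used library totals, and correlations are descriptions over fish. Tests used edgeR 4.0.16 in R 4.3.3 (TMM, robust quasi-likelihood F-test, 2-sided, 1 mean per strain, age and sex, filter by group at a minimum count of 10). The filter removed 0.00699% of brain and 0.00438% of skin counts, and the median biological coefficient of variation was 0.148 and 0.269. An SE is the log2 change divided by the square root of F. DESeq2 1.42.0, other size factors, no filter, other library sets and blocks were alternatives. Python 3.11.15 made the rule and the figures. Both methods were tested on simulated data.

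The members, gene lists and tests were chosen with earlier results of these data known. Named genes are the 6 of highest r, those at the rank limit, the first 2 on-off members on or off in all of GRZ-D, the first 2 each way by smallest change in the strain, age and tissue comparisons, and the 2 most typical of the largest cluster. Nfu_g_1_018076 and Nfu_g_1_008182 were named after their values were seen. Lists of cell-type and pathway genes use symbols and could not be applied. Brain and skin are paired by fish, per the labels. Fish with the same number in different groups were not paired: in none of the 16 comparisons of strain or age did every pair's deviations correlate above 0.1. Counting limits cover counting error only.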

Additional observations from a re-analysis of the deposited data

Results flagged for a closer look

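The members named for the strain and age comparisons were searched for 1 fish far from the others of its group. Among 34 sets of fish, 8 were found. Chance would give about 1 in 20 in sets not chosen for their spread. The members were chosen for wide spread between longer-lived fish, so that rate does not apply and the 8 are a description. Nfu_g_1_016052 was highest in GRZ-D male 5 of day 21 in brain, at 5.39 CPM against 3.82 to 4.42 CPM in the other 7. In the same brain Nfu_g_1_007450 had 0.0418 CPM, which is 1 count, and the other 7 had 0. Nfu_g_1_007450 was at 52.8 CPM in the skin of MZCS-0403 male 5 of day 21, against 6.74 to 13.7 CPM. Nfu_g_1_016745 was at 4.54 CPM in the skin of MZM-0403 male 7 of day 35, against 0.0828 to 0.13 CPM, and at 4.92 CPM in male 6 of day 287, against 33.7 to 59.3 CPM. Nfu_g_1_021459 was at 3.7 CPM in the brain of MZM-0403 male 12 of day 35, against 0.0697 to 0.34 CPM. At day 287 it was at 0.248 CPM in the brain of male 5, against 0.036 to 0.101 CPM, and at 4.9 CPM in the skin of male 3, against 0.0603 to 0.877 CPM.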

How the results depend on the processing

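Of 148 alternative counts of members called, 137 were within 1.5 times the reported count. The replicate block used fish numbers shared by 2 groups, which do not pair the fish. Its counts follow with those of all genes in brackets. GRZ-D against MZM-0403 at day 35 in brain gave 37 of 137 members (4700 of 20457 genes). The GRZ-D age change in brain gave 49 of 125 (8384 of 20139). The MZM-0403 age change gave 21 of 132 in brain (540 of 20328) and 3 of 139 in skin (13 of 19290). The MZCS-0403 age change in brain gave 9 of 140 (1081 of 20231). MZCS-0403 against MZM-0403 in skin gave 35 of 140 (890 of 18053). For GRZ-D against MZM-0403 at day 35 in skin the block gave 0 of 143 members (0 of 19577 genes) with edgeR. In that fit 63 members had an unadjusted p under 0.05 (edgeR), and DESeq2 without the block gave 77. Most of these block fits keep few fish, and the cause was not tested. Fits of the 2 groups alone gave 52 of 125 (9071 of 20139) for the GRZ-D age change in brain. They gave 34 of 140 (1475 of 18053) for MZCS-0403 against MZM-0403 in skin. All 84 libraries labelled skin, 8 of them closer to the brain profile, gave 25 of 150 (7143 of 23722) for the MZCS-0403 age change. Without 1 fish, the counts of each tested comparison were 71 to 84 and 57 to 72 (GRZ-D against MZM-0403 at day 35, brain and skin), 44 to 51 and 34 to 47 (GRZ-D against MZCS-0403 at day 147), 64 to 73 and 60 to 74 (MZM-0403 age) and 22 to 34 and 29 to 39 (MZCS-0403 age). Among 202 alternative values of named members, 198 kept call and direction, 4 lost the call and 0 reversed: Nfu_g_1_001498 had an adjusted p of 0.64 in brain and 0.155 in skin under the replicate block (edgeR), and the other two are given with their genes. The fish block changed no call of a named member between brain and skin.

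The list itself depended on its settings. The rule found 54 of the 150 again with 0.1 added to CPM, 28 with 5 added, 82 and 69 with SD limits of 0.4 and 0.6, 99 with no limit on r in GRZ-D, 75 in MZM-0403 alone and 72 in MZCS-0403 alone; it kept 43, 3, 44, 25, 44, 28 and 22 of the 44 members with r of 0.8 or more. The other settings kept 121 to 149, and leaving out 1 fish or 1 group 114 to 148. The median r of the members in the GRZ-D day 49 males ran from 0.0317 to 0.102 without 1 fish. Levels under 0.242 CPM rest on few counts, so that differences between fish there were not detectable.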
